A study of Mus musculus with 6 samples.

Results

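The genes of islet cell adhesion and gap junctions described here are Pvr, Cdh1, Cdh2, Ncam1, Gjd2, Gja1, Epcam and Ctnnb1, which is 8 of the 18193 genes that a single-symbol probe set of the array named. They were read by 30 of 45037 non-control probe sets, counting every probe set annotated to exactly 1 of the 8 symbols. Pvr was chosen by its higher signal in the knockout in these same arrays, and the other 7 were set beside it as familiar adhesion genes. The differences between the groups are therefore given for these 8 genes as descriptions, without p-values.

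Islets were taken from male C57Bl6 mice aged 12 weeks and measured on Affymetrix mouse expression arrays. The Flox group, labelled only by its floxed genotype, had 3 arrays, and the Tead1KO group, labelled as a beta cell-specific knockout of Tead1, had 3 arrays. Tead1 encodes a DNA-binding partner of the Hippo pathway coactivators. The labels name no Cre line for either group, no age at deletion and no pooling of animals, and do not tie an array to a single mouse. SDs and p-values thus measure the spread between these samples, part of which may be technical. By that label, non-beta cells of a Tead1KO islet keep the gene, and in whole islets fewer cells of a type and less RNA per cell cannot be told apart.

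Islet cells are held together by calcium-dependent cadherins, whose tails bind beta-catenin and through it the actin cytoskeleton, and by calcium-independent molecules of the immunoglobulin family. Gap junctions, built of connexins, connect the cytoplasm of neighbouring beta cells and synchronise their calcium oscillations during glucose stimulation. Nectins and nectin-like molecules such as Pvr form a further set of cell contacts, and Pvr on a cell surface is also a ligand for receptors of T cells and natural killer cells.

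Values are log2 probe set signals, so a difference of 1 is a doubling. Different probe sets bind with different efficiency, and the level of 1 probe set is not set against that of another. Probe sets for bacterial transcripts absent from the samples read 2.87 to 4.70, and signals in that range are called background. The arrays differed in quality: the interquartile range of signal was 2.99 to 3.32 in 5 arrays and 2.66 in Tead1KO replicate 3, which also had the highest hybridization control signal (13.23, against 10.60 to 12.09) and the lowest mean correlation with the other arrays (0.969, against 0.984 to 0.986). Hormone transcripts were at the top of the scale, with Ins2 at 15.67 to 15.71, Gcg at 14.69 to 14.81 and Sst at 13.93 to 14.22 over the 6 arrays. The brighter probe set of Tead1 itself overlapped between the groups, at 6.99 to 7.40 in Flox and 5.95 to 7.49 in Tead1KO. Whether it lies inside the deleted part is unknown, so it does not check the labels.

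Promoter sequences, from 250 bases upstream to the base before the start site, were found in RefSeq (GRCm38.p6) for 4 of the 8 genes: Gjd2, Gja1, Epcam and Ctnnb1. No entry was found for Pvr, Cdh1, Cdh2 and Ncam1. The pair of connexin promoters is shown because Gjd2 and Gja1 are the gap junction genes and the deleted factor is a DNA-binding protein. The motifs below were searched on both strands: the TEAD core GGAATG, the AP-1 site TGAGTCA and the GC box GGGCGG. No match overlaps another in the printed windows, and capitals mark the matches. The first lies at chr2:114013620-114013869 on the minus strand and the second at chr10:56377050-56377299 on the plus strand.
Gjd2: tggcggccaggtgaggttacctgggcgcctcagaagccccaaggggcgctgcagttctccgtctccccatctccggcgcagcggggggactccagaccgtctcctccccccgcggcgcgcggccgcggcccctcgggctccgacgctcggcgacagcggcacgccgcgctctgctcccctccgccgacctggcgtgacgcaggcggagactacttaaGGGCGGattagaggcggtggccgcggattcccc
Gja1: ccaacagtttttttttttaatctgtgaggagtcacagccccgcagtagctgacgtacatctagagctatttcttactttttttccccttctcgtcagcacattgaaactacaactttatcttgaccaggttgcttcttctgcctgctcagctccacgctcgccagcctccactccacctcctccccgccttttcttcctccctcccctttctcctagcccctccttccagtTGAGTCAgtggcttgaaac
The capitals mark a GC box starting 33 bases before the start site of Gjd2 and an AP-1 site starting 19 bases before that of Gja1. The TEAD core was in 0 of the 5 windows of the 4 genes (Ctnnb1 has a pair of start sites), and in 12.6% of all 32851 promoter windows of this length. The AP-1 letters were in 1 of the 5 windows against 4.46% of all windows, and the GC box in 4 of the 5 against 32.7%. The Ctnnb1 windows overlap and hold the same GC boxes in part, so that by gene it was in 3 of the 4. These are letter matches within short windows and say nothing of binding elsewhere.

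Pvr (CD155, nectin-like molecule 5), an immunoglobulin-family receptor that binds nectin-3 on neighbouring cells, was the gene picked for its difference. At its brightest probe set it read 7.20, 7.31 and 7.06 in Flox replicates 1 to 3 and 9.25, 9.13 and 9.10 in Tead1KO replicates 1 to 3. The groups were far apart and each was tight: the means were 7.19 ± 0.13 and 9.16 ± 0.08 (SD, n = 3 each), a log2 difference of 1.97 (SE 0.16), or 3.92-fold. A second probe set read 5.89, 5.96 and 5.86 in Flox and 8.05, 7.34 and 7.45 in Tead1KO. All Tead1KO arrays were again above all Flox arrays there, with a log2 difference of 1.71 (SE 0.21), or 3.27-fold.

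The other 5 of the 7 Pvr probe sets lay within background in the means of both groups. Their log2 differences ran from 0.01 to 0.52, and in 2 of the 5 the 3 Tead1KO arrays were all above the Flox arrays. In the platform annotation 4 of the 7 probe sets, both bright ones among them, derive from the same source sequence, so they are not independent readings of the gene. The brightest carries the suffix of probe sets that can match several transcripts. Averaging all 7, dim ones included, gave a log2 difference of 0.72.

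**Figure D1:**
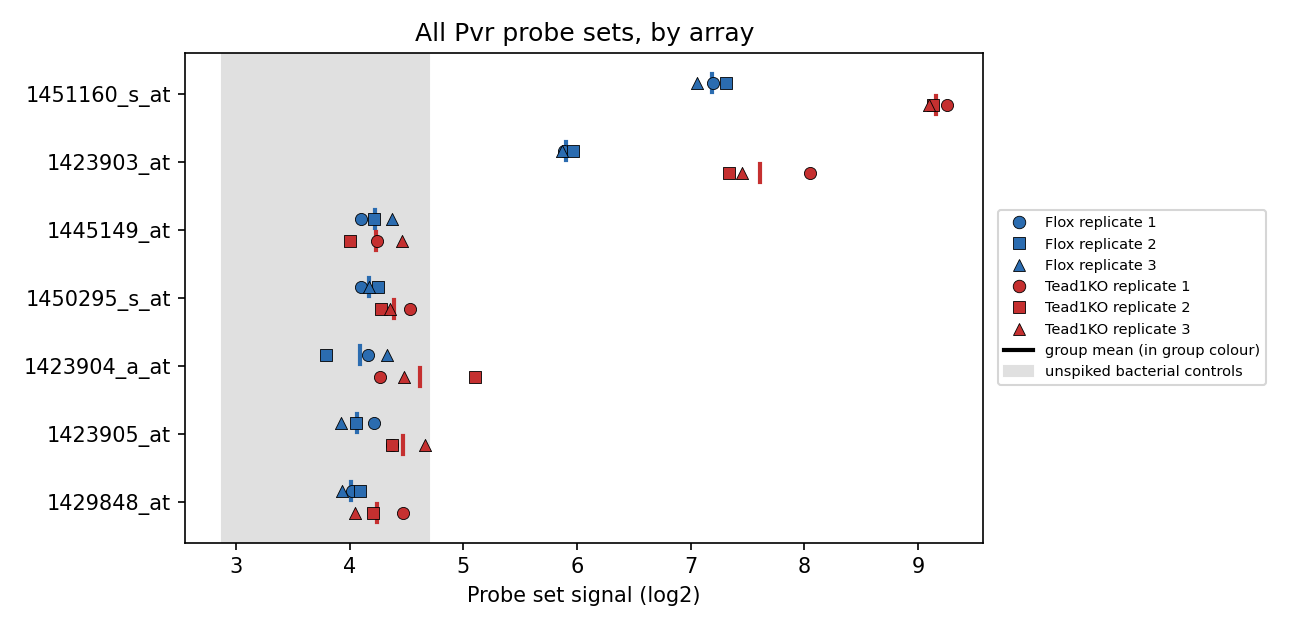
Signal (log2, x axis) of the 7 Pvr probe sets (y axis) on each array, Flox in blue and Tead1KO in red, with the symbol giving the replicate, vertical ticks the group means and the grey band the range of unspiked bacterial controls. The upper pair of probe sets separates the groups by 1.97 and 1.71, and the 5 below have both group means in the band.

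Across all genes, Pvr passed the threshold (limma with Benjamini-Hochberg adjustment under 0.05) and stood 23rd by size of the 61 genes called higher, and 33 were called lower. It was the 1 gene of the 8 called, where 0.517% of all genes were. At probe set level 2 of the 30 were called higher, both of Pvr, where 0.131% of all probe sets were, and 0 were called lower, where 0.0488% were (0.18% in either direction). Nothing is read from the call, the rank or these shares, since the contrast served to pick Pvr. With each array left out in turn, the log2 difference of Pvr ran from 1.90 to 2.03.

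**Figure D2:**
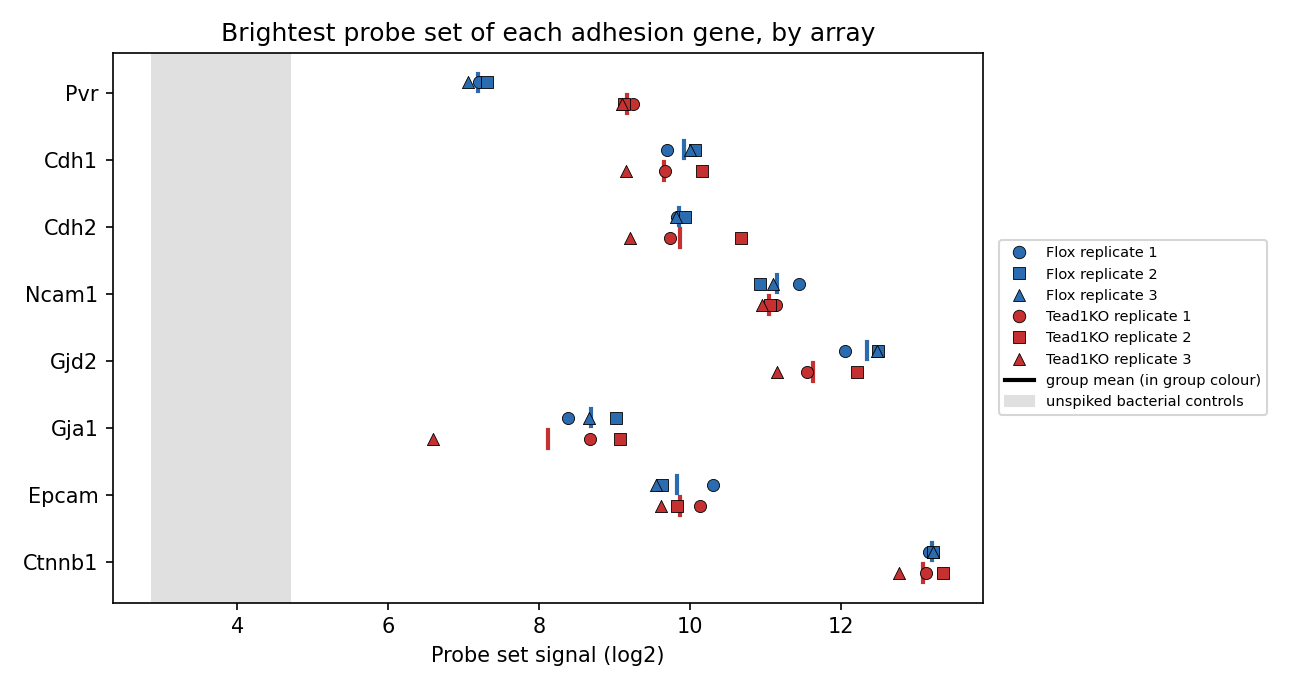
Signal (log2, x axis) of the brightest probe set of each of the 8 genes (y axis) on each array, with colours, symbols, ticks and grey band as for the Pvr probe sets. The Flox and Tead1KO arrays of Pvr lie apart, while those of the other 7 genes overlap, and Tead1KO replicate 3 is the lowest array for Cdh1, Cdh2, Gjd2, Gja1 and Ctnnb1.

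The classical cadherins did not show such a separation. Cdh1 encodes E-cadherin, the main cadherin of epithelia, and its probe set read 9.70, 10.07 and 10.01 in Flox against 9.67, 10.16 and 9.15 in Tead1KO. The arrays overlapped, with the highest and the lowest value both in Tead1KO, and the log2 difference was -0.27 (SE 0.26, n = 3 each). It was -0.01 without Tead1KO replicate 3, -0.52 without Tead1KO replicate 2, and 0.09 with the signal of the hybridization controls as a covariate.

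Cdh2 encodes N-cadherin, a cadherin of neural and endocrine cells. Its brighter probe set read 9.83, 9.94 and 9.82 in Flox and 9.74, 10.68 and 9.20 in Tead1KO. The dimmer one read 7.30, 7.07 and 7.06 in Flox and 6.79, 8.18 and 6.20 in Tead1KO. Both gave the same order of the Tead1KO arrays, with replicate 2 above every Flox array and replicates 1 and 3 below them. The group means hardly differed (0.01, SE 0.33, and -0.09, SE 0.44), and at the brighter probe set the difference was -0.39 without Tead1KO replicate 2 and 0.35 without replicate 3. The SD of the brighter probe set was 0.06 in Flox and 0.75 in Tead1KO. Over all genes the Tead1KO SD was the larger in 76.1%, with a median of 0.26 against 0.14 in Flox.

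Ctnnb1 encodes beta-catenin, which links cadherins to alpha-catenin and also carries Wnt signals to the nucleus. Its brightest probe set was near the top of the scale, at 13.17, 13.22 and 13.23 in Flox and 13.13, 13.36 and 12.78 in Tead1KO. The arrays overlapped, and the log2 difference was -0.12 (SE 0.16), -0.25 without Tead1KO replicate 2 and 0.04 without replicate 3. Its other probe sets differed by -0.10 (SE 0.30) and 0.27 (SE 0.25), so the 3 readings did not share a direction.

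Gjd2 encodes connexin36, the connexin that couples beta cells electrically. It was the member that lay lower in Tead1KO at both of its probe sets. The brighter read 12.06, 12.49 and 12.47 in Flox and 11.55, 12.21 and 11.16 in Tead1KO. Tead1KO replicate 2 fell within the Flox range and the other Tead1KO arrays below it, for a log2 difference of -0.70 (SE 0.26). The dimmer probe set read 7.74, 7.96 and 7.93 in Flox and 7.67, 7.50 and 7.06 in Tead1KO. Here all Tead1KO arrays were below all Flox arrays, though the nearest of them were close, and the log2 difference was -0.47 (SE 0.20).

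Neither Gjd2 probe set was called over all probe sets. The difference at the brighter one was -0.46 without Tead1KO replicate 3 and -0.99 without replicate 2, and after adjustment for the hybridization control signal it was -0.31. Over all probe sets 0.18% were called and 5.16% had all Tead1KO arrays below Flox. By gene, at the brightest probe set, these shares were 0.517% and 7.27%. Of 6 measured beta cell markers 0 were called, 5 differences were below 0 and 3 genes had all Tead1KO arrays below Flox. These were Ucn3, a beta cell peptide, which differed by -0.95 (limma adjusted p = 0.056), Nkx6-1, a beta cell transcription factor, by -0.95 (limma adjusted p = 0.0637) and Slc2a2, the glucose transporter, by -0.82 (limma adjusted p = 0.194). Iapp and Ins2, both near the top of the scale, differed by 0.03 and -0.005 (limma adjusted p = 0.931 and 0.985). The summed signal of the 6 markers, to which Ins2 and Iapp contribute most, was 16.93 to 16.97 (log2) in Flox and 16.74 to 16.95 in Tead1KO. The part of beta cell number or maturity in the Gjd2 values was not tested.

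Gja1 encodes connexin43, the widespread connexin of stromal, muscle and glial cells. Its 6 probe sets did not give 1 picture. The brightest read 8.38, 9.02 and 8.66 in Flox and 8.68, 9.08 and 6.60 in Tead1KO. Replicates 1 and 2 of Tead1KO were within or just above the Flox range and replicate 3 was far below the lowest Flox array. The log2 difference of -0.57 (SE 0.57) became 0.19 without that array and 0.23 after adjustment for the hybridization control signal. It became -1.05 without Tead1KO replicate 2 and -0.85 without replicate 1. Its suffix marks a probe set that can match several transcripts, as do those of 3 others.

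Of the other Gja1 probe sets, 1 was within background in both groups, and the remaining 4 differed by -0.13 to 0.53. The one without such a suffix and above background in a group read 4.55, 4.49 and 4.43 in Flox, within background, and 4.97, 4.45 and 5.64 in Tead1KO. By the means it was at least 1.25-fold higher in Tead1KO, setting the Flox mean to the top of the background range, 4.70, but the arrays overlapped. There replicate 3 was the highest Tead1KO array, where it was the lowest at the brightest probe set. One dim probe set had all Tead1KO arrays above all Flox arrays, 6.12, 6.12 and 6.31 against 6.10, 5.93 and 5.89.

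**Figure D3:**
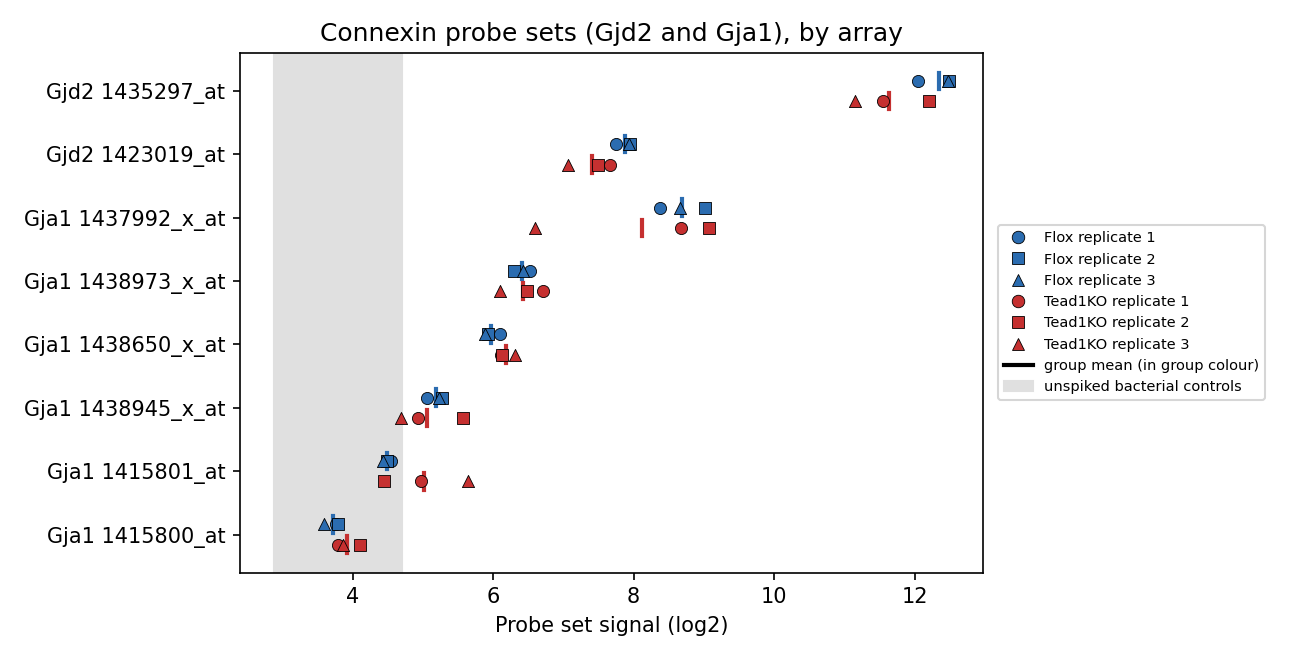
Signal (log2, x axis) of the 2 Gjd2 and 6 Gja1 probe sets (y axis) on each array, with colours, symbols, ticks and grey band as for the Pvr probe sets. Both Gjd2 probe sets have lower Tead1KO means, by 0.70 and 0.47, and the brightest Gja1 probe set has 1 low array, Tead1KO replicate 3.

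Ncam1, a neural adhesion molecule of the immunoglobulin family that endocrine cells of the islet carry, was read by 7 probe sets, 3 of them within background in both groups. The brightest read 11.44, 10.93 and 11.10 in Flox and 11.15, 11.06 and 10.95 in Tead1KO. The arrays overlapped (log2 difference -0.10, SE 0.17, and 0.04 without Flox replicate 1), and the Tead1KO SD, 0.10, was smaller than that of Flox, 0.26. The other 3 above background differed by -0.27, -0.25 and 0.01. The polysialic acid that modifies Ncam1 is added by the enzymes St8sia2 and St8sia4, which differed by 0.25 and -0.08 (limma adjusted p = 0.836 and 0.942).

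Epcam, a surface glycoprotein of epithelial cells, read 10.31, 9.63 and 9.55 in Flox and 10.14, 9.83 and 9.62 in Tead1KO at its brighter probe set. Replicate 1 was the highest array of each group, and the group means differed by 0.04 (SE 0.24), or by -0.10 to 0.28 with 1 array left out. The summed signal of 9 acinar enzyme and factor genes, a measure of exocrine tissue among the islets, was lowest in the same arrays: 15.45, 17.17 and 17.41 in Flox and 15.53, 17.33 and 16.62 in Tead1KO. The part of exocrine tissue in the Epcam values was not tested. The dimmer Epcam probe set read 8.50, 8.05 and 8.15 in Flox and 8.63, 7.78 and 9.23 in Tead1KO, with a log2 difference of 0.31 (SE 0.34).

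The 7 genes other than Pvr thus had 23 probe sets, 19 above background in at least 1 group, and 0 of them passed the limma test. The groups did not overlap at 1 probe set with Tead1KO higher and at 1 with it lower, where 5.36% and 5.16% of all probe sets did not overlap in those directions (10.5% in either). The brightest probe sets shared a pattern among the arrays: in 5 of the 8 genes, Cdh1, Cdh2, Gjd2, Gja1 and Ctnnb1, replicate 2 was the highest and replicate 3 the lowest of the Tead1KO arrays. The same order held for 43.9% of the 12511 genes above the median signal. Replicate 3 was the lowest of the 6 arrays for the same 5 genes and for 49.5% of those 12511. For Pvr, Ncam1 and Epcam replicate 1 was the highest Tead1KO array.

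**Figure D4:**
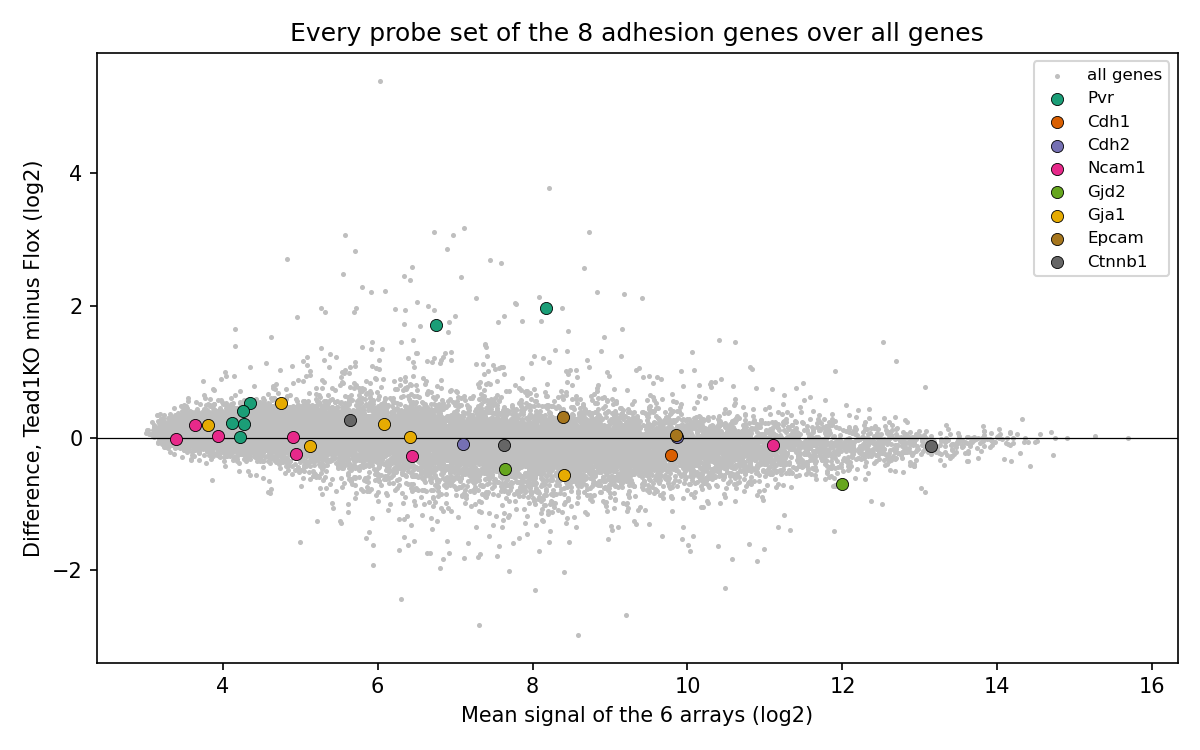
Log2 difference, Tead1KO minus Flox (y axis), against the mean log2 signal of the 6 arrays (x axis), with each of the 30 probe sets as a coloured point by gene over all 18193 genes in grey at their brightest probe set. The upper pair of Pvr points lies at 1.97 and 1.71, and every other coloured point is between -0.70 and 0.53.

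The neighbours of Pvr on its chromosome did not share its difference. In the gene order of GRCm38.p6, Pvr on chromosome 7 has the adhesion genes Nectin2 and Bcam on one side, and the immunoglobulin-family genes Igsf23 and Ceacam20 on the other. Nectin2 differed by 0.11, Bcam by -0.25, Igsf23 by -0.00 and Ceacam20 by 0.28 (limma adjusted p = 0.857, 0.784, 0.999 and 0.827). Closer to Pvr than Nectin2 and Bcam, Cblc and Bcl3 differed by -0.10 and -0.20. Gm19345, also closer and at background in Tead1KO, had all Tead1KO arrays below Flox. Beyond Ceacam20, Vmn1r148 differed by 0.00 and Gm5891 was within background in both groups. Nlrp9b, at background in Flox, had the largest difference of these neighbours, 0.53 by the means, with overlapping arrays (limma adjusted p = 0.731). Of the 10 nearest measured protein-coding genes, 5 on each side, 0 passed the test, where 0.517% of all genes did. With so few genes this count is near that share, and nothing is read from it.

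Other nectins and nectin-like molecules did not pass either. Of 8 measured genes 0 were called and 0 had an unadjusted p under 0.05, against 0.517% and 7.4% of all genes. With a list this short such counts do not set the nectins apart from other genes, and nothing is read from them. Differences were above 0 for 4 of the 8, with a median of -0.04, against -0.0074 for all genes. Nectin3, the trans partner of Pvr, read 9.34, 9.72 and 9.62 in Flox and 8.86, 9.61 and 8.24 in Tead1KO. Its log2 difference of -0.66 (SE 0.32, limma adjusted p = 0.707) was -0.33 without Tead1KO replicate 3 and -1.01 without replicate 2 (limma adjusted p = 0.92 and 0.0733). Its arrays overlapped, and its other 4 probe sets above background differed by -0.12 to 0.11. Cadm1, a nectin-like molecule of synapses and islets, read 9.57, 9.48 and 9.36 in Flox and 9.64, 9.80 and 9.86 in Tead1KO, all Tead1KO arrays above, but the difference of 0.30 did not pass (limma adjusted p = 0.707). Afdn, the scaffold that ties nectins to actin, differed by -0.27 (limma adjusted p = 0.778), and Nectin1 and Nectin4 by -0.13 and 0.04.

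The lymphocyte receptors that bind Pvr gave little signal. Cd226 was within background in both groups, and Cd96 read 5.49, 4.95 and 5.09 in Flox and 5.60, 4.79 and 6.02 in Tead1KO, overlapping (log2 difference 0.30, limma adjusted p = 0.815). Tigit was not analysed here. Among the 10 measured leukocyte markers 0 were called and 2 had an unadjusted p under 0.05, 1 higher and 1 lower. Over all genes 0.517% were called and 7.4% had such a p. The summed signal of the leukocyte markers was 11.16 to 11.77 in Flox and 11.34 to 12.59 in Tead1KO. Cd79a, a B cell receptor gene, had all Tead1KO arrays below Flox (-0.85, limma adjusted p = 0.0725). Genes of macrophages did not share a direction: C1qa, a complement gene, differed by 1.08 with overlapping arrays (limma adjusted p = 0.518), Csf1r by -0.25, Lyz2 by -0.16 and Cd68 by -0.01. Adgre1, another macrophage gene, had all Tead1KO arrays above Flox, with a difference of 0.15 (limma adjusted p = 0.803). Of the natural killer cell markers, Nkg7 was within background in both groups, and Ncr1 was so in Flox and just above it in Tead1KO, at means of 4.57 and 4.77.

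Markers of other cells that could carry adhesion genes were measured as well. Of 10 stromal and pericyte markers 0 were called and 4 had an unadjusted p under 0.05, 2 higher and 2 lower. Over all genes 0.517% were called and 7.4% had such a p. Rgs5, a pericyte gene, differed by -0.62 with overlapping arrays (limma adjusted p = 0.654). Dcn and Col1a2, fibroblast matrix genes, had all Tead1KO arrays above Flox (log2 differences 1.11 and 0.62, limma adjusted p = 0.2 and 0.325), and Acta2, smooth muscle actin, had them all below (-0.99, limma adjusted p = 0.294). The summed stromal signal was 11.75 to 12.08 in Flox and 11.45 to 12.16 in Tead1KO. The summed endothelial signal, mostly from Plvap, was 12.384 to 12.407 in Flox and 12.408 to 12.445 in Tead1KO. It hardly varied, though all Tead1KO arrays were just above all Flox arrays. Duct markers summed to 13.61 to 13.73 in Flox and 13.22 to 13.76 in Tead1KO, and Schwann cell and neural markers to 7.86 to 8.09 and 7.85 to 8.52. Alpha, delta and pancreatic polypeptide cell markers overlapped between the groups: 15.83 to 15.88 against 15.84 to 15.89, 14.44 to 14.75 against 14.44 to 14.67, and 15.03 to 15.28 against 14.94 to 15.39. The cell type that carries the Pvr signal cannot be told from whole islets, and the part of these cell types in it was not tested.

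Beyond the 8 genes, 204 genes in 14 adhesion lists were measured, and 1 of them was called higher and 0 lower, where 0.335% and 0.181% of all genes were. In total 17 had an unadjusted p under 0.05 (7 higher and 10 lower), where 7.4% of all genes had, 110 lay above 0 and the median was 0.02. All Tead1KO arrays were above Flox in 11 genes and below in 11, where 5.8% and 7.27% of all genes were so (13.1% in either direction). Their differences ran from -1.30 to 1.06, and Pvr, chosen for its difference, is not ranked against them. The 1 called gene was Cntn3, contactin-3, a membrane-anchored immunoglobulin-family molecule of neurons. It read 5.19, 5.19 and 4.94 in Flox and 6.29, 6.28 and 5.93 in Tead1KO, a rise of 1.06 (SE 0.17, limma adjusted p = 0.0472). The call ended without any 1 of the Flox arrays or Tead1KO replicate 1 (limma adjusted p = 0.184, 0.243, 0.32 and 0.265) and with median centring (0.11), with its probe sets averaged (0.141) and with the replicate number as a block (0.0502). In the fit over all probe sets the same Cntn3 probe set did not pass (limma adjusted p = 0.0849). The other Cntn3 probe set was within background in both groups.

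**Figure D5:**
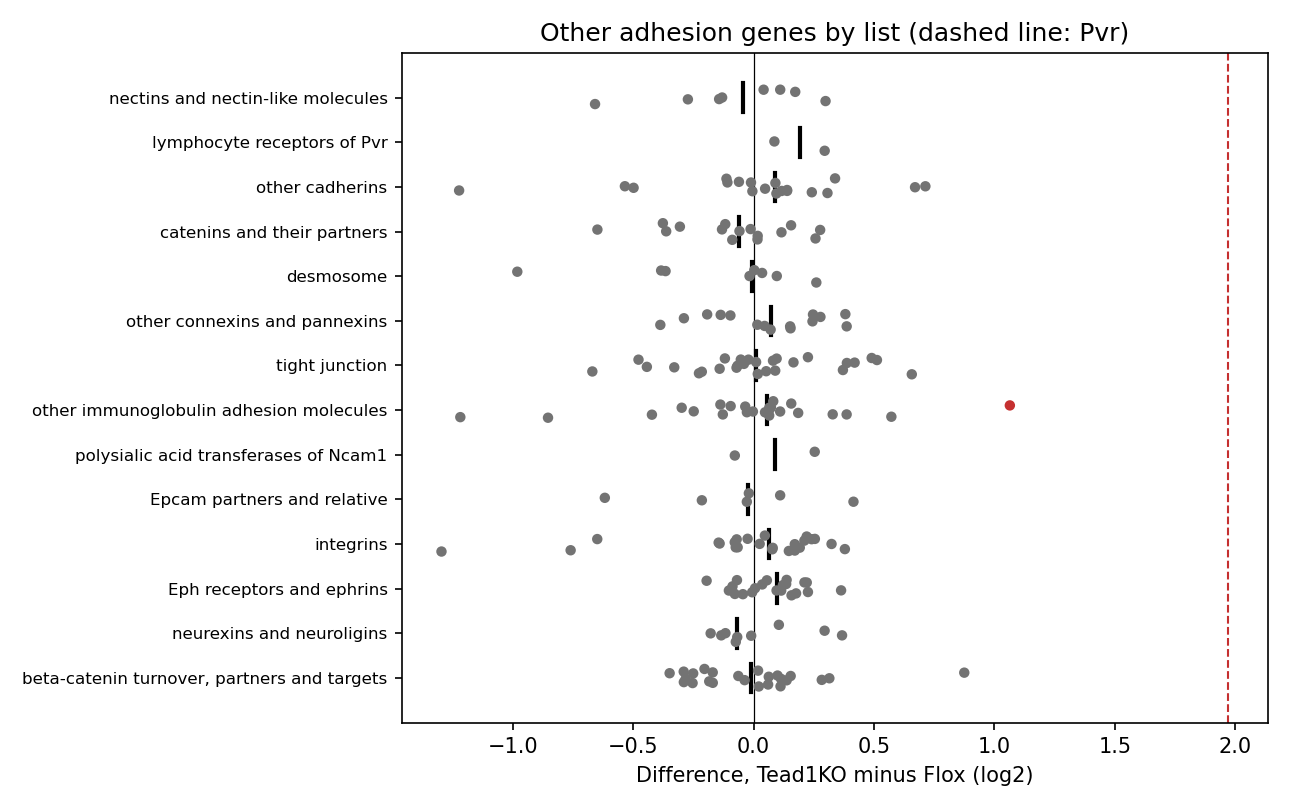
Log2 difference, Tead1KO minus Flox (x axis), of the 204 measured genes of the 14 adhesion lists (y axis), 1 point a gene, with black ticks for the list medians, red for genes that passed the test and a dashed line at the Pvr difference. The 1 red point is Cntn3 at 1.06, and the points run from -1.30 to that value.

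Of 24 other immunoglobulin adhesion molecules 1 (Cntn3) was called and 3 had an unadjusted p under 0.05, against 0.517% and 7.4% of all genes. Among them Nrcam, a neuronal relative of L1cam, read 7.15, 8.03 and 6.70 in Flox and 6.09, 6.08 and 6.06 in Tead1KO. All Tead1KO arrays were below Flox, but the spread within Flox was wide and the difference of -1.22 did not pass (limma adjusted p = 0.244). Its other probe sets above background overlapped between the groups, at -0.14 and 0.09, and averaging its probe sets gave -0.27. Cntn1, contactin-1, differed by -0.85 (limma adjusted p = 0.535), with Tead1KO replicate 2, at 10.32, inside the Flox range of 10.15 to 10.69. Without that array its difference was -1.21 and passed (limma adjusted p = 0.0338). L1cam, Icam1 and Vcam1 differed by 0.11, 0.16 and 0.19.

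Of 19 other cadherins 0 were called and 3 had an unadjusted p under 0.05, against 0.517% and 7.4% of all genes. Cdh7, a cadherin of the neural crest and nervous system, had the largest difference: 7.33, 6.49 and 6.85 in Flox and 5.44, 5.76 and 5.81 in Tead1KO. The arrays did not overlap, and the log2 difference of -1.22 (SE 0.24) missed the threshold (limma adjusted p = 0.104), though it passed after adjustment for the hybridization control signal (-1.34, limma adjusted p = 0.0321). Cdh22 read 8.40, 8.37 and 8.29 in Flox and 7.75, 7.81 and 7.89 in Tead1KO, tight and apart (-0.53, limma adjusted p = 0.298). Cdh4, R-cadherin, differed by 0.71 with overlapping arrays (limma adjusted p = 0.595). Cdh5, the endothelial cadherin, differed by 0.14.

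The cytoplasmic partners of the cadherins gave 0 calls among 15 genes and 2 at an unadjusted p under 0.05, both lower. Over all genes 0.517% were called and 7.4% had such a p. Ctnna1, alpha-catenin, differed by -0.38, and Ctnnd2, delta-catenin, by -0.65 (limma adjusted p = 0.725 and 0.54). Without Tead1KO replicate 3 these were -0.18 and -0.39, and the other Ctnnd2 probe set differed by -0.02. Ctnna2, a neural alpha-catenin at background in Tead1KO, was at least 1.2-fold higher in Flox (limma adjusted p = 0.512). All Tead1KO arrays of Ctnnd2 and Ctnna2 were below Flox. Of the 8 desmosome genes 0 were called and 0 had an unadjusted p under 0.05, beside the same shares over all genes. Dsp, desmoplakin, read 9.44, 9.35 and 9.50 in Flox and 8.48, 9.52 and 7.35 in Tead1KO, with replicate 2 above every Flox array. Its difference of -0.98 (limma adjusted p = 0.699) was -0.43 without Tead1KO replicate 3 and -1.52 without replicate 2 (limma adjusted p = 0.88 and 0.0608). At a dimmer Dsp probe set all Tead1KO arrays, replicate 2 included, were below Flox (-0.82, SE 0.31, limma adjusted p = 0.871 over all probe sets). Pkp2, the plakophilin that binds desmoplakin, differed by -0.38 (limma adjusted p = 0.739), and Pkp1 was within background in both groups.

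Connexins and pannexins other than the members gave 0 calls among 15 genes, 7 of them within background in both groups. An unadjusted p under 0.05 was found for 2 of the 15, 1 higher and 1 lower. Over all genes 0.517% were called and 7.4% had such a p. Gjc1, connexin45, read 5.29 ± 0.22 in Flox and 4.91 ± 0.09 in Tead1KO (SD, n = 3 each), all Tead1KO arrays below (-0.39, limma adjusted p = 0.64). Its other probe set, within background in both groups, had all Tead1KO arrays above Flox (0.30), and averaging its probe sets gave -0.04. Gja3 differed by 0.39 (limma adjusted p = 0.725), Gje1 was within background in both groups, and Gja4, a connexin of vessels, by -0.10. Panx1, a membrane channel related to the gap junction proteins in topology, differed by -0.14.

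Of 27 tight junction genes 0 were called and 4 had an unadjusted p under 0.05, against 0.517% and 7.4% of all genes. All Tead1KO arrays were above Flox in 5 of the 27 and below in 1, against 5.8% and 7.27% of all genes. Tjp3, a junctional scaffold, read 7.02 ± 0.03 in Flox and 6.35 ± 0.12 in Tead1KO (SD, n = 3 each), a difference of -0.67 (limma adjusted p = 0.169). Cgn, cingulin, which binds such scaffolds, went the other way, at 9.73, 9.25 and 9.43 in Flox and 10.17, 10.04 and 10.17 in Tead1KO (0.66, limma adjusted p = 0.244). The claudin Cldn2 also had all Tead1KO arrays above Flox (0.51, limma adjusted p = 0.456). None of the 3 overlapped between groups and none passed.

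Of 24 integrin subunits 0 were called and 2 had an unadjusted p under 0.05, both lower, against 0.517% and 7.4% of all genes. Itgav, the integrin alpha V chain, had the most negative difference of all adhesion lists, and it rested on few arrays: 10.08, 10.25 and 10.11 in Flox and 8.93, 10.47 and 7.16 in Tead1KO. The difference of -1.30 (limma adjusted p = 0.738) was -0.45 without Tead1KO replicate 3 and -2.11 without replicate 2 (limma adjusted p = 0.965 and 0.0661). A dimmer Itgav probe set above background differed by 0.25. Itgb8 differed by -0.76 with all Tead1KO arrays below Flox (limma adjusted p = 0.461), and passed without Tead1KO replicate 2 (limma adjusted p = 0.0457). Itga7, at background in Tead1KO, was at least 1.16-fold higher in Flox (limma adjusted p = 0.449). Itgb1, the common beta 1 chain, differed by 0.38 (limma adjusted p = 0.761).

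Eph receptors and ephrins, contact signals between beta cells, gave 0 calls among 21 genes and 0 at an unadjusted p under 0.05. Over all genes the shares were 0.517% and 7.4%, to be set beside each list of this paragraph. Epha5 and its ligand Efna5 differed by 0.16 and -0.19 (limma adjusted p = 0.838 and 0.793), and Epha2 and Epha4 by 0.36 and 0.21. Of 9 neurexins, neuroligins and related synaptic adhesion genes 0 were called and 0 had an unadjusted p under 0.05. Nrxn3 differed by 0.29 and Lrrtm2 by -0.18, and Nlgn1 was within background in both groups. Among 6 partners and relatives of Epcam 0 were called and 0 had an unadjusted p under 0.05, with Cd44, a hyaluronan receptor, at -0.62, Fhl2 at 0.41 and Adam17, a sheddase, at -0.21 (limma adjusted p = 0.672, 0.704 and 0.869).

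Genes of beta-catenin turnover and signalling, which act on the protein of Ctnnb1, gave 0 calls among 24 and 1 at an unadjusted p under 0.05. Over all genes the shares were 0.517% and 7.4%. Rnf43, a ubiquitin ligase that removes Wnt receptors and is itself a Wnt target, read 4.89, 4.80 and 4.84 in Flox and 5.34, 5.98 and 5.84 in Tead1KO. The arrays did not overlap, though the Flox signal was just above background, and the difference of 0.87 (SE 0.19) missed the threshold (limma adjusted p = 0.153). Axin2, another Wnt target, differed by 0.02 (limma adjusted p = 0.976). Lgr5, with a Flox mean inside the background range, was higher in Tead1KO by at least 1.16-fold (limma adjusted p = 0.707), and Sp5 was within background in both groups.

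Genes that varied most like Pvr were ranked by Pearson r with its brightest probe set over the 6 arrays, among 12510 other genes above the median signal. These arrays are the same that separate Flox from Tead1KO, so a high r mostly states a like separation. Crmp1, a neuronal collapsin response mediator, came first (r = 0.996), at 8.41, 8.33 and 8.36 in Flox and 10.52, 10.52 and 10.37 in Tead1KO. It was followed by Sel1l3 (0.995), 2610028H24Rik (0.994), Gprc5b, an orphan receptor (0.994), Timp2, an inhibitor of matrix metalloproteinases (0.993), and C4bp, a complement regulator (0.993). The log2 differences of the first 5 were 2.11, 0.71, 2.85, 1.23 and 1.30, and C4bp was within background in Flox, so that it passed the signal filter through Tead1KO alone. Sel1l3 did not pass the test (limma adjusted p = 0.131) and the others did. Nothing is read from these calls, since the ranking picked genes that separate Flox from Tead1KO as Pvr does. Over the same 6 arrays the other members had r of -0.71 (Gjd2), -0.38 (Cdh1), -0.31 (Ncam1 and Ctnnb1), -0.30 (Gja1), 0.10 (Epcam) and 0.02 (Cdh2).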

How the data were processed

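Islet RNA of 3 Flox and 3 Tead1KO samples was measured on 1 array each. The table deposited by the authors holds log2 signals per probe set. The submitters' processing notes name Expression Console; its version and method are not stated in what was used here. Values were used as deposited, with 64 control probe sets left out of tests and no pseudocount or filter. Symbols came from the platform annotation (34945 probe sets with 1 symbol, 932 with several, 9160 unnamed here). limma version 3.58.1 in R 4.3.3 (lmFit, eBayes with trend, Benjamini-Hochberg) was fitted to the brightest probe set of each of 18193 genes, and to all 45037 probe sets for the members' SE. Differences are Tead1KO minus Flox. The fit was checked on simulated data. For arrays, their number limits the precision.

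Named genes were the 8 members, in each adhesion list every called gene and up to 3 of smallest unadjusted p, the 6 genes most like Pvr, and Tead1. Further genes named (neighbours of Pvr, markers, Nectin1, Nectin4, L1cam, Icam1, Vcam1, Cdh5, Gja4, Panx1, Itgb1, Epha5, Axin2) were chosen after their values were seen. The members and lists were chosen with earlier results of these data known.

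Alternatives were median centring or quantile normalization, a robust prior or no trend in the variance, leaving out dim probe sets or those of suffix _x_at or _s_at, averaging a gene's probe sets, a hybridization control covariate, a replicate block, adjusted p under 0.1 and 0.01, and leaving out each array.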

Additional observations from a re-analysis of the deposited data

How the results depend on the processing

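The number of genes called was 94, and 152 with quantile normalization, 58 with median centring, 242 with the hybridization controls as a covariate and 26 at an adjusted p under 0.01. It was 20, 18 and 17 without Flox replicates 1 to 3 and 12, 303 and 177 without Tead1KO replicates 1 to 3. Of probe sets 81 were called, and 143, 42 and 268 under the same 3 settings, 143 at an adjusted p under 0.1 and 20 under 0.01. It was 9, 11 and 11 without Flox replicates 1 to 3 and 4, 239 and 186 without Tead1KO replicates 1 to 3. The cause was not tested. Genes of the adhesion lists called were 1 (Cntn3), and 0 with median centring, with a gene's probe sets averaged and at an adjusted p under 0.01, 2 with the hybridization controls (Cdh7 and Cntn3), 0 without any 1 Flox array or Tead1KO replicate 1, and 4 without Tead1KO replicate 2 (Cdh17, Cntn1, Cntn3 and Itgb8).

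With the replicate number as a block 97 genes, 96 probe sets and 0 adhesion genes were called, and Cntn3 had a limma adjusted p of 0.0502. Deviations of same-numbered arrays correlated at 0.0556, 0.303 and -0.175, and not every array correlated best with its own number, so the numbers were not taken as pairs.

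The Pvr difference of 1.97 was 1.71 without probe sets of suffix _x_at or _s_at, which leaves its second probe set, and 0.72 with its 7 probe sets averaged, 5 of them at background. The brightest Gja1 reading of -0.57 became 0.53 without such probe sets. Of 91 values of members other than Pvr the other 90 moved by less than 1 SD, but 20 in all turned sign: 0 of 13 for Gjd2, 1 for Cdh1, 2 for Ncam1, 3 for Ctnnb1, 4 for Gja1 and 5 each for Cdh2 and Epcam. Among 40 named adhesion genes a sign turned in 8 of 595 values, all of differences that did not pass. With the hybridization controls these were Cd96 (-0.15), Adam17 (0.17) and St8sia4 (0.12), and with probe sets averaged St8sia4 (0.0533). The rest came from leaving out 1 array: over the 6 such fits St8sia2 ran from -0.0022 to 0.52, St8sia4 from -0.27 to 0.21 and Adam17 from -0.50 to 0.20. Of these 40 differences 24 moved by over 1.5 times or turned sign with the hybridization controls, 21 with probe sets averaged, 19 without Tead1KO replicate 3 and 12 without Tead1KO replicate 2, against 0 to 6 under the others tried.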
